A study of Mus musculus with 6 samples.

Results

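The heat shock proteins of the cytosol are molecular chaperones, which bind unfolded or aggregation-prone proteins and help them fold, move or be degraded. Hsp70 proteins bind short hydrophobic stretches in a cycle driven by ATP, J-domain proteins such as Dnajb1 deliver the substrates, nucleotide exchange factors such as Hsph1 and Bag3 release them, and Hsp90 acts later on kinases, receptors and other clients. In unstressed cells the transcription factor Hsf1 is held inactive, and on heat or misfolded protein it forms trimers, binds heat shock elements in the promoters of Hspa1a, Hspa1b and other genes, and induces them strongly. Liver makes Hspa8 and Hsp90ab1 constantly, whereas Hspa1a and Hspa1b are its stress-inducible Hsp70 genes.

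Of 10 genes chosen for this group, 8 were read by 20 probe sets that carry 1 of their symbols alone, out of 18193 genes with such a probe set. They were Hspa1a, Hspa1b, Hspa8, Hsph1, Dnajb1, Hsp90aa1, Hspb1 and Bag3. Hsp90ab1 and Hsf1 were not analysed here. Every probe set of the 8 genes was compared, since a gene's probe sets may differ in transcript form or in specificity. A probe set is a group of short oligonucleotides on an Affymetrix array that together measure one transcript, and Affymetrix adds _x_at to the name where some of them may also match other sequences and _a_at where they match several forms of a gene's transcript.

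Liver RNA came from 3 B6.Alb/cre,Pdss2loxP/loxP mice (mutants) and 3 B6.Pdss2loxP/loxP mice (controls), with 1 array per mouse. All 6 mice carried Pdss2 alleles flanked by loxP sites. Mutants also carried cre recombinase driven by the albumin promoter, which the study used to target the deletion to hepatocytes. In which cells of the liver the flanked part was deleted was not tested here. Mutants were aged 176, 178 and 224 days and controls 209, 213 and 140 days, all described as male, housed in separate cages by genotype and without food for the last 3 hours of life. Control 1 is labelled as the concurrent control of mutant 3. No animal received a treatment.

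Each difference is a log2 value, mutants minus controls, and rests on the deposited labels. The study describes oxidative phosphorylation as raised in mutants, from gene set enrichment over KEGG pathways. The count here is another measure, over respiratory chain subunit genes picked by symbol. Of their 138 probe sets 98 had a negative and 40 a positive difference, with a median of -0.69. Among all probe sets 34.8% had a negative difference. Limma called 4 of the 138 higher and 1 lower at an adjusted p under 0.05. Pdss2 was read by 3 probe sets. On the brightest, 1444085_at, mutants 1 to 3 read 6.94, 6.88 and 7.05 and controls 1 to 3 read 7.46, 7.47 and 7.56, so that each mutant lay below each control, by -0.54 on average (standard error 0.18, adjusted p = 0.118 from limma), the direction that the labels give for the deleted gene. The other probe sets of Pdss2 differed by 0.40 and 0.35 with overlapping groups, and the sources used here do not say where any of them lies relative to the exon that cre removes. The median value of an array lay between 6.12 and 6.24 in mutants and between 5.92 and 6.12 in controls, and the median difference of all 45037 probe sets tested was 0.17. It was 0.01 with each array centred on its median and 0.04 after quantile normalization. This shift was not even over the signal range, so neither 0.17 nor the share of 34.8% is a baseline for every probe set. Lower quartiles of the arrays were 5.28 to 5.40 in mutants and 5.03 to 5.25 in controls. Upper quartiles were 7.08 to 7.13 in mutants and 7.06 to 7.095 in controls. Spiked-in bacterial transcripts, which report on hybridization, were higher on mutant arrays, by 1.80 for the 5' probe set of BioB (exact permutation test, p = 0.1). The 3' minus 5' signal of Gapdh was 0.45, -1.06 and -1.78 in mutants and between 2.02 and 2.31 in controls (exact permutation test, p = 0.1). That of Actb overlapped, at 2.60, 3.95 and 4.495 in mutants and 3.82, 3.90 and 3.11 in controls (exact permutation test, p = 0.8). The hepatocyte genes Alb and Ttr had means of 13.75 and 13.98 in mutants and 14.00 and 14.02 in controls. Of 8 markers of sinusoidal endothelium, Stab1 and Stab2 rose (1.39 and 1.82, adjusted p from limma), none fell and none was at 0, and the summed linear signal of all 8 was 5350 to 9250 in mutants and 2250 to 4140 in controls. The summed signal of 7 Kupffer cell markers was 2380 to 4150 in mutants and 1130 to 2360 in controls, and that of 7 hepatocyte markers 51100 to 63200 and 61700 to 62800, with none called in either list and none at 0. For 4 bile duct markers it was 315 to 419 in mutants and 238 to 268 in controls, with none called. The groups overlapped for stellate (1130 to 1670 and 1020 to 1450), lymphocyte and natural killer (450 to 539 and 370 to 457) and erythroid markers (348 to 630 and 587 to 703). The part of these array and cell-type measures in the heat shock results was not tested.

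Hspa1a and Hspa1b lie next to each other, with no other protein-coding gene between them, and their promoters are shown because each gene has probe sets of its own in the annotation although their sequences are nearly alike. In RefSeq windows (GRCm38.p6) that span 250 bases before and 50 bases after each gene's start, 6 of the 10 genes had a window. The stretch before the start is printed 5' to 3' on the minus strand, with the heat shock element match in capitals, first for Hspa1a (chr17:34972157-34972406) and then for Hspa1b (chr17:34959239-34959488).
Hspa1a: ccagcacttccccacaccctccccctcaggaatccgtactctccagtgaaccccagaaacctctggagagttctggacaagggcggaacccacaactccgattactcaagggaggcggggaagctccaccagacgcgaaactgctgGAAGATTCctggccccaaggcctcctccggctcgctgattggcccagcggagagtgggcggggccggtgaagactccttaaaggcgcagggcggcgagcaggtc
Hspa1b: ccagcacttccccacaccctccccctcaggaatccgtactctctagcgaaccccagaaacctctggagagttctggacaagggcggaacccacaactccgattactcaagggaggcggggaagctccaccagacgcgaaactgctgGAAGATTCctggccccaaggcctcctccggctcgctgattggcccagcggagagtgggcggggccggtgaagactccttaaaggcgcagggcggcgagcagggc
Both stretches have 250 bases, of which 247 are identical (98.8%). From Hspa1a to Hspa1b, counted from 1 at the 5' end of the stretch, the substitutions are C44T, T47C and T249G, and none touches the match at -104 to -97.

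The heat shock element is built of inverted repeats of GAA. It was searched as a pair of units, GAANNTTC or TTCNNGAA, each its own reverse complement, and as 3 units, GAANNTTCNNGAA or TTCNNGAANNTTC, which are reverse complements of each other and contain the shorter forms, so that both strands were covered. Of the 6 genes with a window, 5 held a pair of units, against 15.1% of all 32851 windows, and Hsph1 alone held 3 units, against 0.603% of windows. The counts are of genes and the shares of windows, and Hsph1 and Dnajb1 have 2 windows each. Hspa1a and Hspa1b hold the same match in nearly identical stretches, so they are not separate cases. The 3-unit match of Hsph1, TTCTGGAAAGTTC (chr5:149636288-149636300, minus strand), lies after the start, and both windows of Hsph1 overlap and share it. Bag3 held GAAGTTTC at 43 to 50 after the start, and the windows of Dnajb1 held no match. Hspb1 held a pair of matches before its start, at -117 to -110 and -97 to -90 (chr5:135887779-135887838, plus strand), shown here in capitals.
Hspb1: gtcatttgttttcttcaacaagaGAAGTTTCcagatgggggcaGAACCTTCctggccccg
Such a match is a description of letters and not a measured binding site.

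Among the 20 probe sets, 2 fell in mutants and none rose at a Benjamini-Hochberg adjusted p under 0.05 from limma, where 1.99% of all probe sets were called, 0.746% lower (336) and 1.25% higher (561), or 150 each way with every array centred on its median. Both read Hspa1b. With an unadjusted p under 0.05, 6 of the 20 were lower and 2 higher (9.54% and 15.7% of all probe sets). In 6 each mutant lay below each control and in 1 each mutant lay above each control (10.7% and 21.2% of all), and in the other 13 the groups overlapped. The median difference over the 20 was -0.32, with 16 negative and 4 positive differences, while 34.8% of all probe sets had a negative one. The 20 are not independent, since 3 belong to Hspa1b, 4 to Hspa8 and 5 to Hsp90aa1. Without mutant 1 the number called was 7, all lower, as calls over all 45037 probe sets went from 897 to 3840 (2551 lower and 1289 higher). The number called among the 20 was 0 without any single one of the other 5 mice. In those fits limma called 3 of all 45037 without control 1 and 0 without each of the others, so the 0 is not particular to the 20.

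**Figure D1:**
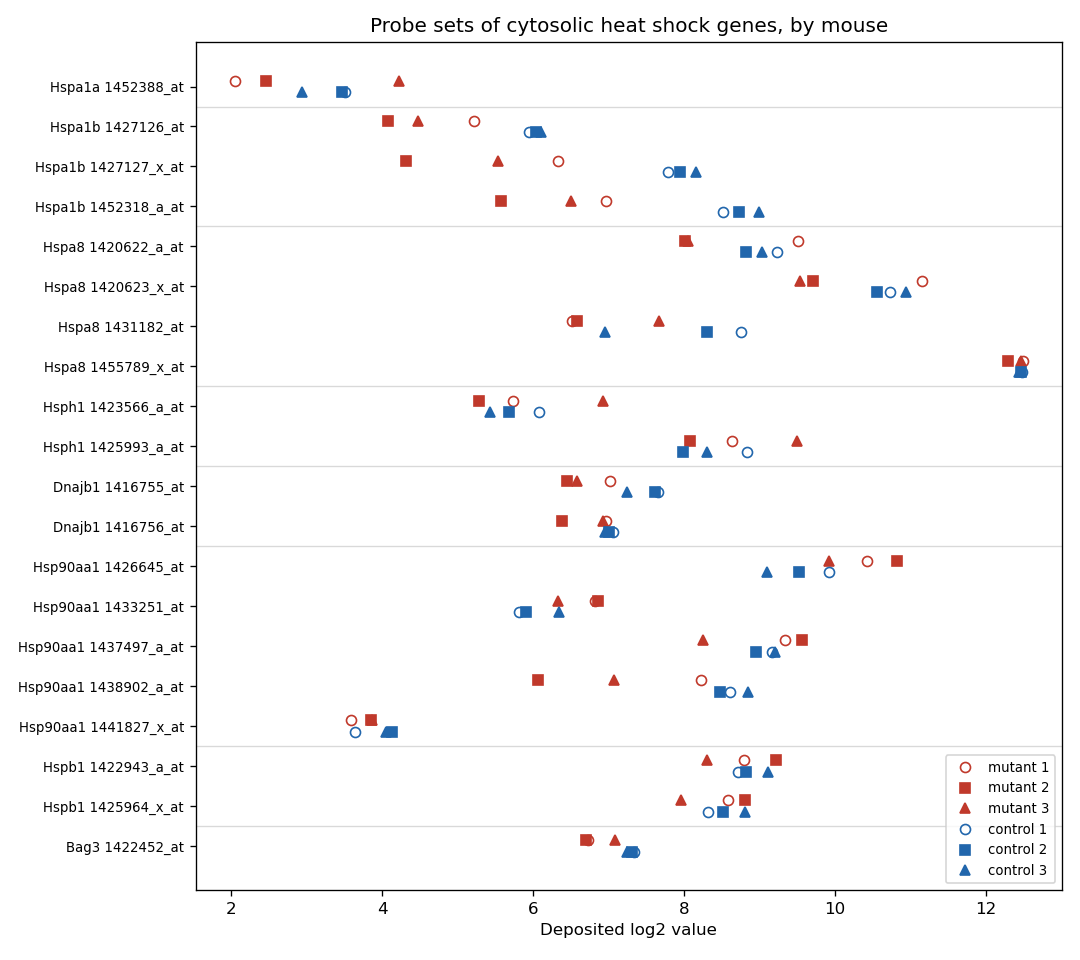
Deposited log2 value (horizontal axis) of each of the 20 probe sets (vertical axis) in mutants (red) and controls (blue), with the marker shape giving the mouse number. On the 3 probe sets of Hspa1b all mutants sit to the left of all controls, while on the brightest probe set of Hspa8 the 6 mice sit within 12.30 to 12.49.

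Hspa1b, the stress-inducible Hsp70, had less signal in each mutant than in any control on all 3 of its probe sets. On 1452318_a_at, the brightest of them, mutants 1 to 3 read 6.96, 5.57 and 6.50 and controls 1 to 3 read 8.52, 8.73 and 8.996 on the log2 scale. The groups were well apart, and mutant 2 was lowest. The gene fell by 2.41 on this probe set (standard error 0.36, 95% interval -3.23 to -1.58, adjusted p = 0.0345 from limma), to 18.9% of the control level. On 1427127_x_at the values were 6.33, 4.32 and 5.53 in mutants and 7.79, 7.94 and 8.16 in controls. The signal fell by 2.57 there (standard error 0.46, 95% interval -3.64 to -1.50, adjusted p = 0.0462 from limma), to 16.8% of the control level, with the mice in the same order. Mutant 2 lay below the lower quartile of its array (5.40) there, so that this percentage rests in part on a dim value. The dimmest, 1427126_at, read 5.22, 4.08 and 4.48 in mutants, below the lower quartile of each of their arrays (5.28 to 5.40), and 5.95, 6.04 and 6.11 in controls. Its difference of -1.44 (standard error 0.30, 95% interval -2.13 to -0.75) had an adjusted p of 0.054 from limma. An exact two-sided permutation test gave p = 0.1 for each of the 3, the smallest p that 3 mice against 3 allow. Mutant 3 and its concurrent control 1 read 6.50 and 8.52 on the brightest.

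Mutants also varied more than controls on Hspa1b, with an SD of 0.71 against 0.24 (n = 3 per group) on 1452318_a_at and of 1.01 against 0.19 on 1427127_x_at. A wider spread in mutants was not particular to Hspa1b. It was seen on every other probe set of the group except Hspa8 on 1431182_at (0.65 against 0.94) and Hsp90aa1 on 1441827_x_at (0.16 against 0.26). The spread was not tested. The difference on 1452318_a_at lay between -2.72 and -2.02 with each mouse left out in turn, and on 1427127_x_at between -3.04 and -2.03. The adjusted p from limma for 1452318_a_at was 0.0101 without mutant 1 and 0.0837 to 0.166 without any other mouse, and for 1427127_x_at it was 0.0106 and 0.0959 to 0.183. With each array centred on its median the differences were -2.57 (adjusted p = 0.0474 from limma) and -2.73 (adjusted p = 0.0559). In bulk liver, fewer cells that carry a transcript and less of it per cell cannot be told apart.

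**Figure D2:**
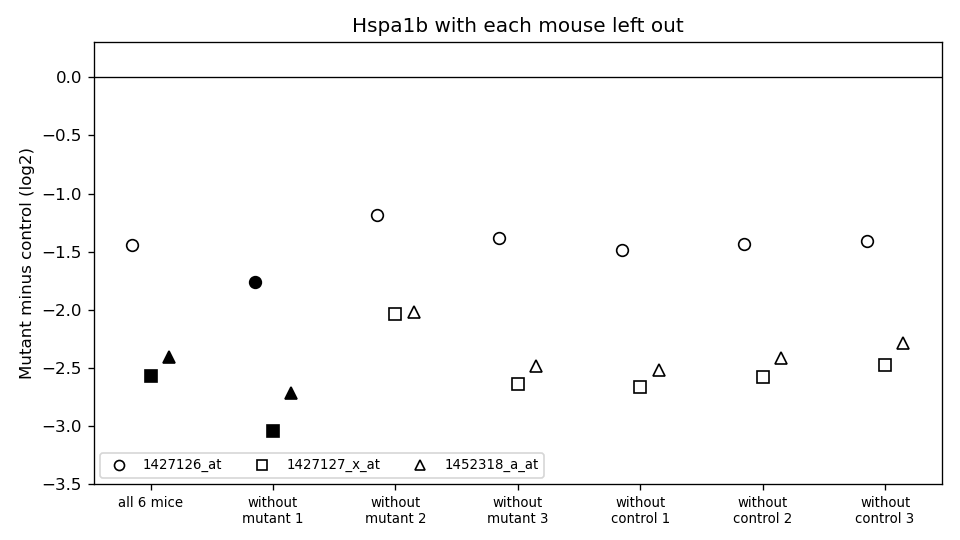
Difference in Hspa1b, mutant minus control on the log2 scale (vertical axis), on its 3 probe sets with all 6 mice and with each mouse left out (horizontal axis). Filled symbols have an adjusted p under 0.05 from limma. Every difference lies between -3.04 and -1.19, and the symbols are filled only with all mice, on 2 of the probe sets, and without mutant 1.

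Hspa1a, which encodes an Hsp70 of almost the same protein sequence as Hspa1b, was read by 1 probe set, 1452388_at. Its values were 2.05, 2.46 and 4.22 in mutants and 3.51, 3.47 and 2.94 in controls, below the lower quartile of every array (5.03 to 5.40). The groups overlapped, and the difference of -0.40 had a 95% interval of -1.62 to 0.82 (adjusted p = 0.682 from limma). At this dim signal the arrays set no close limit on a change in Hspa1a. Which of the neighbouring genes the Hspa1b probe sets bind was not tested.

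Hspa8, the constitutive Hsp70 of the cytosol, was the brightest gene of the group. Its probe set 1455789_x_at read 12.49, 12.30 and 12.46 in mutants and 12.49, 12.47 and 12.45 in controls, with a difference of -0.05 and a 95% interval of -0.47 to 0.37 (adjusted p = 0.894 from limma). Within each array, Hspa1b on 1452318_a_at minus Hspa8 on 1455789_x_at, a pair chosen after its values were seen, was -5.52, -6.73 and -5.965 in mutants and -3.97, -3.73 and -3.45 in controls. A constant shift of a whole array does not alter this measure, but a shift that varies with signal can. The measure differed by -2.36 and largely restates the Hspa1b difference, since this probe set of Hspa8 differed least of its 4. Against the other Hspa8 probe sets it differed by -1.90, -1.80 and -1.32, and on the last of these, 1431182_at, the groups overlapped. The remaining probe sets of Hspa8 gave wider values. On 1420623_x_at mutant 1 read 11.15 and mutants 2 and 3 read 9.71 and 9.54, against 10.55 to 10.95 in controls, so that the groups overlapped through mutant 1 alone. On 1420622_a_at mutant 1 read 9.51 and the other mutants 8.02 and 8.06, with controls at 8.82 to 9.24. The differences were -0.61 (95% interval -1.57 to 0.35, adjusted p = 0.401 from limma) and -0.50 (95% interval -1.43 to 0.43, adjusted p = 0.482). Without mutant 1 both were called by limma, at -1.12 (adjusted p = 0.0326) and -0.99 (adjusted p = 0.0443). On 1431182_at mutants read 6.51, 6.58 and 7.67 and controls 8.76, 8.30 and 6.95, and the youngest control was the low one. Its difference of -1.08 had an adjusted p of 0.228 from limma and of 0.0342 with age as a covariate.

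Dnajb1, the J-domain protein that works with stress-inducible Hsp70, read 7.02, 6.45 and 6.58 in mutants and 7.65, 7.61 and 7.25 in controls on 1416755_at. Each mutant lay below each control, and the difference was -0.82 (standard error 0.23, 95% interval -1.36 to -0.28, adjusted p = 0.0882 from limma). It was called without mutant 1 (-0.99, adjusted p = 0.0479) and under no other setting with an adjusted p. On 1416756_at the values were 6.97, 6.38 and 6.93 in mutants and 7.06, 7.003 and 6.95 in controls. Here mutant 2 stood apart from the other 5 mice, and the difference was -0.25 (95% interval -0.76 to 0.27, adjusted p = 0.534 from limma).

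Bag3, a co-chaperone that releases substrates from Hsp70 and links it to autophagy and small heat shock proteins, had 1 probe set, 1422452_at. It read 6.73, 6.71 and 7.08 in mutants and 7.33, 7.31 and 7.24 in controls, so that the groups did not overlap. The difference was -0.45 (standard error 0.20, upper 95% bound just below 0, lower bound -0.91, adjusted p = 0.198 from limma). Hsph1, an Hsp110 that exchanges the nucleotide of Hsp70, read 8.63, 8.08 and 9.50 in mutants and 8.83, 7.99 and 8.31 in controls on 1425993_a_at. Mutant 3 was highest there and on 1423566_a_at, where it read 6.93 and the other 5 mice 5.28 to 6.08. Both differences were positive, at 0.36 (95% interval -0.53 to 1.26) and 0.25 (95% interval -0.72 to 1.22), and both became negative without mutant 3 (-0.02 and -0.22).

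Hsp90aa1, the stress-inducible isoform of cytosolic Hsp90, gave no single direction over its 5 probe sets. On 1426645_at, the brightest, mutants read 10.42, 10.82 and 9.93 and controls 9.92, 9.53 and 9.10. Each mutant lay above each control, though mutant 3 only just exceeded its concurrent control 1 (9.926 and 9.924). The difference was 0.87 (standard error 0.31, 95% interval 0.16 to 1.58, adjusted p = 0.133 from limma). On 1438902_a_at the order was turned, with mutants at 8.22, 6.06 and 7.07 and controls at 8.60, 8.47 and 8.85. The groups did not overlap and the difference was -1.53 (standard error 0.49, 95% interval -2.65 to -0.40, adjusted p = 0.11 from limma). Without mutant 1 this difference was -2.08 and was called (adjusted p = 0.0192 from limma). On 1433251_at the difference was 0.65 (95% interval 0.09 to 1.22, adjusted p = 0.149 from limma), and control 3 overlapped the mutants. On 1437497_a_at it was -0.06 (95% interval -0.86 to 0.73). The fifth, 1441827_x_at, lay below the lower quartile of every array and differed by -0.18 (95% interval -0.67 to 0.32). The sources used here do not say which transcript forms the 5 probe sets match.

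Hspb1, the small heat shock protein Hsp25 that holds unfolded proteins without using ATP, read 8.79, 9.22 and 8.31 in mutants and 8.72, 8.82 and 9.12 in controls on 1422943_a_at. The controls lay within the range of the mutants there. On 1425964_x_at the groups overlapped too, with values from 7.96 in mutant 3 to 8.81 in control 3. The differences were -0.11 (95% interval -0.74 to 0.52) and -0.10 (95% interval -0.73 to 0.53), with adjusted p of 0.836 and 0.86 from limma. A decrease of Hspb1 of the size seen in Hspa1b lay outside both intervals.

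**Figure D3:**
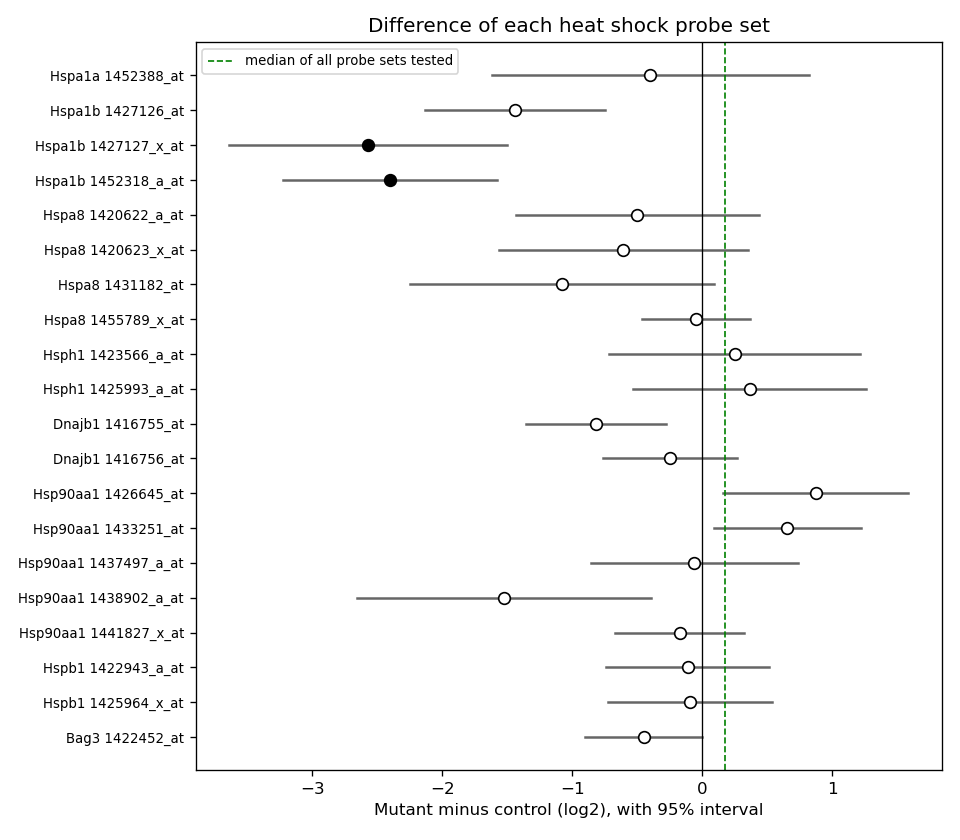
Difference (mutant minus control, log2 scale, horizontal axis) of each probe set (vertical axis), with its 95% interval from limma, n = 3 mice per group. Filled points have an adjusted p under 0.05, and the dashed line marks the median of all probe sets tested at 0.17. The 2 filled points are Hspa1b at -2.41 and -2.57, and the probe sets of Hsp90aa1 spread from -1.53 to 0.87.

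The other chaperones and co-chaperones were taken from lists that name 60 genes, of which 57 were read by 140 probe sets. Of these probe sets 3 fell and 3 rose at an adjusted p under 0.05 from limma (0.746% and 1.25% of all probe sets). An unadjusted p under 0.05 was reached by 38 lower and 20 higher ones (9.54% and 15.7% of all). The median difference of the 140 was -0.04. The number called was 35 without mutant 1, with 29 lower and 6 higher, beside 2551 lower and 1289 higher among all 45037 probe sets. It was 0 without any single one of the other 5 mice, where limma called at most 3 of all 45037.

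Of 19 probe sets of other Hsp70 and Hsp110 genes, 2 fell and none rose (0.746% and 1.25% of all probe sets), and the median difference was 0.03. At an unadjusted p under 0.05, 4 were lower and 1 higher (9.54% and 15.7% of all). Hspa4, an Hsp110 of the same kind as Hsph1, read 6.996, 6.08 and 6.71 in mutants and 8.63, 8.25 and 8.45 in controls on 1435194_at. It fell by 1.85 there (standard error 0.27, adjusted p = 0.0345 from limma), while its other probe sets differed by -0.88, 0.25 and 0.20. Hspa14, a ribosome-associated Hsp70, fell by 1.19 on 1417095_a_at (standard error 0.23, limma's adjusted p = 0.0494), and its other probe sets gave 0.45 and 0.045. Hspa1l, the next gene to Hspa1a, differed by 0.45 with overlapping groups (adjusted p = 0.548 from limma).

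None of 31 probe sets of J-domain proteins was called by limma. At an unadjusted p under 0.05, 5 were lower and 5 higher (9.54% and 15.7% of all probe sets). Dnaja2, a J-domain partner of Hspa8, had the smallest p among them, at -1.04 on 1417182_at (limma's adjusted p = 0.0563), and its other probe sets gave -1.04, -0.20 and 0.07. Of 21 probe sets of Hsp90 co-chaperones 1 was called, and it rose, as 1.25% of all probe sets did. At an unadjusted p under 0.05, 4 were lower and 8 higher (9.54% and 15.7% of all probe sets). In 5 each mutant lay below each control and in 7 above (10.7% and 21.2% of all). Differences in this list ran from -2.09 to 1.26. Unc45a, which brings myosin to Hsp90, read 7.48, 7.56 and 7.56 in mutants and 6.32, 6.54 and 6.65 in controls on 1415866_at. It rose by 1.03 (standard error 0.19, limma's adjusted p = 0.0467), and each mutant lay above each control on its other probe sets too, which differed by 0.68, 0.49 and 0.71.

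Among 11 probe sets of other BAG proteins and Hsp70 regulators limma called 0. An unadjusted p under 0.05 was reached by 4 lower and 1 higher ones (9.54% and 15.7% of all probe sets). Bag4, which restrains death receptors, had the smallest p (-1.46 on 1439024_at, limma's adjusted p = 0.054), and its other probe sets gave -0.76 and 0.08. Of 12 probe sets of other small heat shock proteins 1 fell and none rose (0.746% and 1.25% of all probe sets). At an unadjusted p under 0.05, 3 were lower and 1 higher (9.54% and 15.7% of all). The called one was that of Hspb6, the small heat shock protein Hsp20, which read 6.71, 6.16 and 6.22 in mutants and 7.66, 7.54 and 7.59 in controls. It fell by 1.23 (standard error 0.22, adjusted p = 0.0444 from limma).

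The subunits of TRiC, the ring-shaped chaperonin that folds actin and tubulin, had a median difference of -0.70 over 25 probe sets, of which 20 were negative and 5 positive. Limma called 0 of them at an adjusted p under 0.05. An unadjusted p under 0.05 was reached by 13 lower and 0 higher ones (9.54% and 15.7% of all probe sets). In 12 each mutant lay below each control and in 1 above (10.7% and 21.2% of all). Cct7 had the smallest p, with 8.745, 7.84 and 7.69 in mutants and 9.41, 9.27 and 9.475 in controls on 1415816_at, a difference of -1.29 (standard error 0.30, adjusted p = 0.0619 from limma). Mutant 1 lay closest to the controls on this probe set, as it did on Hspa1b.

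Of the other heat shock factors and the factor-binding protein Hsbp1, limma called 0 of 6 probe sets. An unadjusted p under 0.05 was reached by 2 lower and 1 higher ones (9.54% and 15.7% of all probe sets). Hsbp1, which binds the active trimers of Hsf1, differed by -1.65 on 1451162_at (standard error 0.42, limma's adjusted p = 0.072), against -0.74 on 1423906_at. In the organelle counterparts, 2 of 15 probe sets rose and none fell (1.25% and 0.746% of all probe sets), although the median difference was -0.47. At an unadjusted p under 0.05, 3 were lower and 3 higher (9.54% and 15.7% of all). Hspa5, the Hsp70 of the endoplasmic reticulum, rose by 1.55 on 1427464_s_at (standard error 0.22, limma's adjusted p = 0.0345), and its other probe sets differed by -0.49 and -0.39. Hspa9, the Hsp70 of mitochondria, rose by 2.30 on 1431274_a_at (standard error 0.27, limma's adjusted p = 0.0267), and differed by -0.96, -0.40, 0.02 and 0.21 on its other probe sets.

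**Figure D4:**
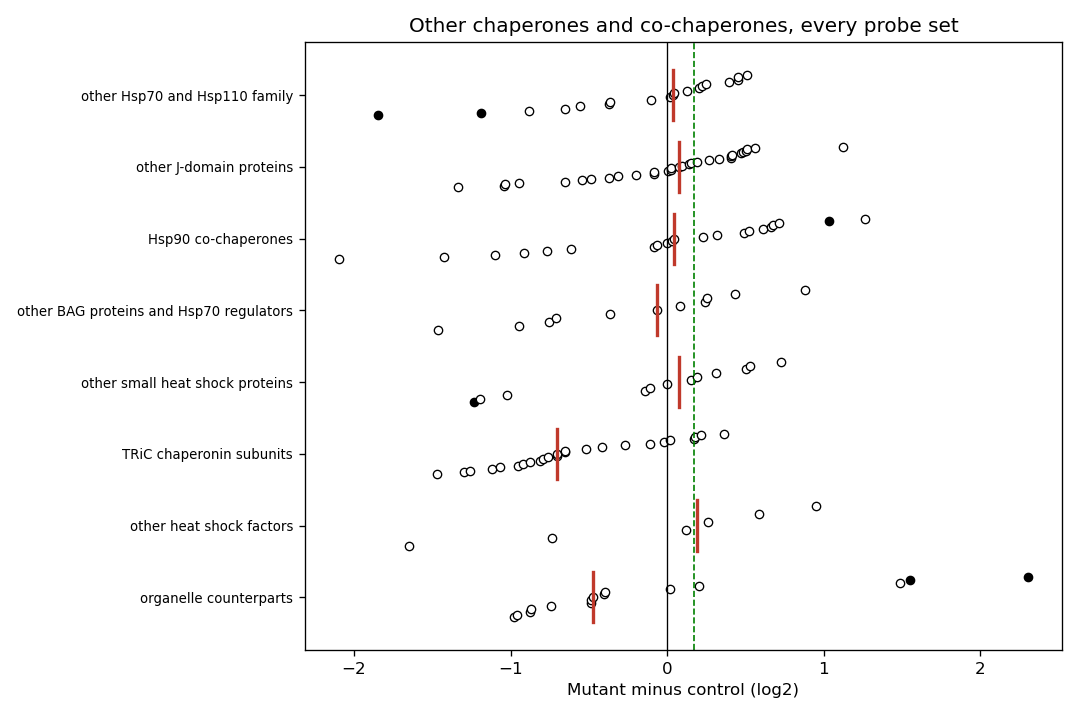
Difference (mutant minus control, log2 scale, horizontal axis) of every probe set in each list of other chaperones (vertical axis). Each point is a probe set, filled where its adjusted p was under 0.05 from limma, the red bar is the median of the list, and the dashed line is the median of all probe sets tested. TRiC has the lowest median of these lists, at -0.70, and 6 points are filled in all.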

How the data were processed

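Liver RNA of 3 mutant and 3 control mice was measured on 1 Affymetrix mouse array each, grouped by sample title. Per the study's methods, the authors used dChip and its model for perfect-match probes to normalize the arrays, and the deposited file holds 1 log2 value per probe set and array, from 0 to 14.6, which was analysed without further scaling. The sources used here do not state the dChip version. The array they name is one for C. elegans, whereas the deposited probe sets belong to a mouse array. No detection calls came with the values, so signal over background is unknown, and the number of arrays limits precision.

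The 64 Affymetrix control probe sets were set aside. The other 45037 were compared by limma 3.58.1 (lmFit, eBayes; R 4.3.3), with Benjamini-Hochberg adjustment over all of them, a threshold of 0.05 and 95% intervals from the moderated fit. Symbols came from the platform annotation, in which 932 probe sets carry several symbols and 9160 none. The script was tested on simulated data. Members and lists were chosen with earlier results of these data known. Named genes were all members, Pdss2, and from each other list up to 4 called genes of smallest p, or else its gene of smallest p. Hspa1l and the pair of Hspa1b with Hspa8 were picked after their values were seen.

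Each count was repeated after quantile normalization, with arrays centred on their medians, on the brighter probe sets, with trend and robust options of eBayes, with a replicate block, with age as covariate, with 1 probe set per gene, on probe sets of 1 symbol, without adjustment, and without each mouse in turn.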

Additional observations from a re-analysis of the deposited data

How the results depend on the processing

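The 2 probe sets of Hspa1b kept their negative direction under every alternative run, at -3.04 to -2.02, but 1452318_a_at was not called with the replicate block (adjusted p = 0.182 from limma), and 1427127_x_at was called neither with the block (0.184), nor with quantile normalization (0.0508), nor with median centring (0.0559). The number of member probe sets called was 1 with quantile normalization, median centring or 1 probe set per gene, 4 with age as a covariate and 8 at an unadjusted p under 0.05. It ranged from 0 to 7 with each mouse left out, with 5 to 10 at an unadjusted p under 0.05. For the other chaperones the count moved from 6 to 2 with median centring, 24 with bright probe sets, 19 with age, 12 with 1 probe set per gene, 13 with probe sets of 1 symbol and 58 at an unadjusted p, and ranged from 0 to 35 with each mouse left out (39 to 66 unadjusted). Over all probe sets it moved from 897 to 300 with median centring (150 higher and 150 lower, against 561 and 336), 3050 with bright probe sets, 1413 with trend and robust options, 2515 with age, 1643 with 1 probe set per gene and 11356 at an unadjusted p, and ranged from 0 to 3840 with each mouse left out, highest without mutant 1 (7526 to 12190 unadjusted). The cause of these shifts was not tested.

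With the replicate block limma called 0 probe sets, 0 members and 0 other chaperones, against 7935, 6 and 43 at an unadjusted p under 0.05. Deviations of same-numbered mice from their group means had correlations of 0.06, -0.50 and -0.56 over all probe sets. No mouse correlated best with its own number. Deviations within a group sum to 0, so these correlations depend on each other and cannot settle whether the numbers pair the mice. Mutant 3 and control 1, the only pair labelled concurrent, had a correlation of 0.453, the highest for each of them, and a single labelled pair gives no block for the other mice.

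Differences that changed sign with a mouse left out were those of Hspa1a (-1.05 to 0.031, positive without mutant 1), Hspa8 on 1455789_x_at (-0.085 to 0.0098, positive without mutant 2), Hsph1 (-0.22 to 0.60 and -0.019 to 0.69, negative without mutant 3), Hsp90aa1 on 1437497_a_at (-0.32 to 0.34, positive without mutant 3) and Hspb1 (-0.33 to 0.12 and -0.27 to 0.15, positive without mutant 3 and without control 3). With quantile normalization the sign changed for Hsp90aa1 on 1437497_a_at (0.074) and for Hspb1 (0.039 and 0.037). None of these probe sets was called under any setting.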
